A study of Saccharomyces cerevisiae with 54 samples.

Results

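The 56 genes described here encode the proteins of the small (40S) subunit of the cytosolic ribosome in budding yeast, RPS0A to RPS31. They were chosen by systematic name from a list of these genes, with no measured value in the rule, and all 56 were found among the 6679 genes of the tables. Of these, 8 are single-copy genes, among them RPS2, RPS3, RPS12, RPS13, RPS15, RPS20 and RPS31, and the other 48 form 24 pairs of paralogs, called A and B. All cells were of the SK1 background, a strain used for its fast and synchronous sporulation. Spores, cells at 10, 8, 6, 4.5, 3, 1.5 and 0 h in sporulation medium, and a MATa/a strain labelled as non-meiotic at 4.5 h were set against cells growing exponentially in the rich medium YEPD. In this course of 10 states each assay (ribosome footprints, mRNA, total RNA) has 1 library a state, so its differences have no replicate check. Parallel libraries cover fewer states. For footprints there are 2 for each of 6, 3 and 1.5 h, with 1 for 0 h and 1 for growth, and for mRNA 2 for 6 h, 1 for 3 h and 2 for 1.5 h. The last set is mRNA of strain brun95, with Ndt80 induced (5 libraries at 5.75, 6, 6.5, 7 and 7.75 h) or not (4 libraries at 4, 5.5, 6 and 7.75 h). Ndt80 is the transcription factor that takes yeast out of meiotic prophase. The labels give no further genotype of any strain and do not say how Ndt80 was induced.

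The small subunit binds the mRNA and holds the decoding centre, in which codons are matched to tRNAs. Budding yeast transcribes ribosomal protein genes strongly in rich medium, through Rap1, Fhl1 and Ifh1, and shuts them down when nutrients run out. Many are duplicated, and the copies of a pair encode identical or nearly identical proteins. Yeast enters meiosis on starvation and ends it as dormant spores, which resume growth when nutrients return.

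Ribosome footprints are the mRNA fragments that translating ribosomes protect, and levels are given in RPKM, a read count divided by the length of the gene and the size of the library. Recovered depth, in units of 1000000 reads, was 1.03 to 17.0 over footprint libraries, 2.20 to 24.7 over mRNA libraries of the course and parallel sets and 2.62 to 8.02 over induction libraries. Every member was above 0 in all footprint and mRNA libraries. Acetate-use genes followed the labels: PCK1, of gluconeogenesis, had 40700 RPKM in course footprints at 0 h, against 22.3 RPKM in growth. SPS4, a target of Ndt80, had 192000 RPKM in footprints of the course at 8 h and 133 RPKM in growth. Some libraries go against their labels. The MATa/a mRNA library had 30.7 RPKM of PCK1 and 75.4 RPKM of ICL1, near the 21.3 and 63.8 RPKM of growing cells, while the MATa/a footprint library had 565 and 6010 RPKM. No translation efficiency is therefore read from MATa/a. STE2, the receptor specific to a cells, was at 568 RPKM in growing-cell mRNA and STE3, its counterpart in alpha cells, at 1.43 RPKM, a pattern of a cells, and the labels do not give the mating type of the growing cells. The RPKM of the 0 h mRNA library summed to 8894795 over all genes and those of the other course mRNA libraries to between 2953567 and 5044039. Levels across states are therefore given as a share of the library's sum or relative to the median change of all genes.

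The small-subunit protein genes held a large share of the pool in growing cells and a small one at 0 h. In footprints the 56 genes held 1.17% of the course library's RPKM sum at 0 h and 1.00% of the parallel library's, against 15.1% and 15.8% in growth. In mRNA of the course they held 0.911% at 0 h and 17.0% in growth. Relative to all genes, every member was over 2-fold lower at 0 h in both assays of the course, as were 29.8% of all genes in mRNA and 28.3% in footprints. The share then stayed low through meiosis. In course footprints it was 1.40% at 1.5 h, 1.34% at 3 h, 1.34% at 4.5 h, 1.35% at 6 h, then 1.38% at 8 h. At 10 h it reached 3.94%, and in spores 5.59%. In mRNA it was 1.11% at 1.5 h, 1.47% at 3 h, 1.49% at 4.5 h, 1.96% at 6 h, 1.83% at 8 h, 2.89% at 10 h and 6.65% in spores. Spores were thus the state with the second highest share in both assays, after growth, among the 9 states other than MATa/a. In a bulk sample, less RNA of these genes per cell and fewer cells that hold it cannot be told apart, and a share also moves with all other genes.

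**Figure D1:**
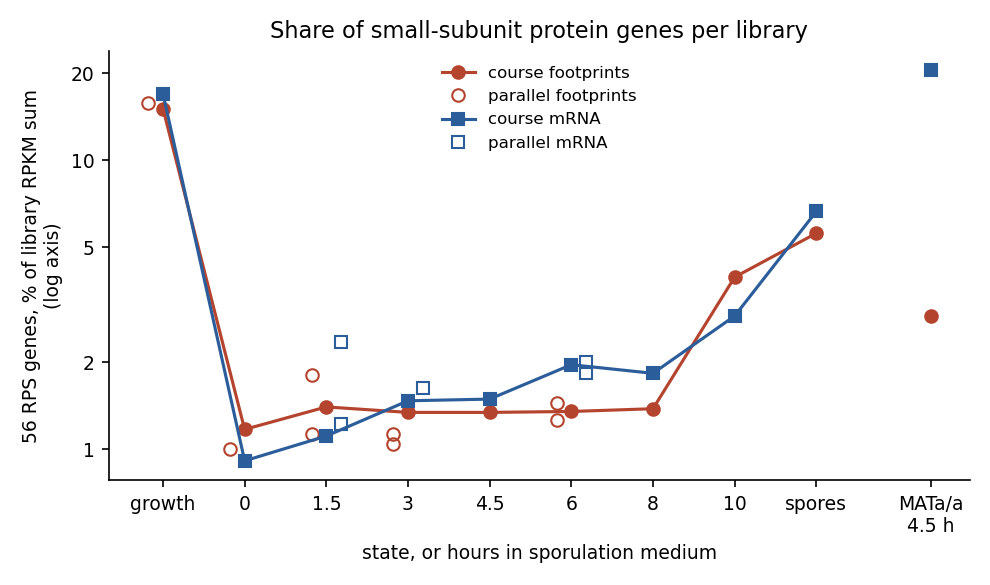
Share of the 56 small-subunit protein genes in each library's RPKM sum (percent, log axis) by state; filled points are course libraries (1 an assay and state) and open points parallel libraries. All 3 growth libraries lie at 15.1 to 17.0%, the libraries of 0 to 8 h at 0.911 to 2.34%, and MATa/a mRNA at 20.5% with its footprints at 2.90%.

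The fall at 0 h was tested in footprints, where each state has a course library and a parallel one, and the test was chosen after the data had been seen. All 56 genes fell by limma with Benjamini-Hochberg adjustment over 5510 genes, 64.0% of which were called (40.4% fell). The median log2 change of the members was -4.19, and that of all genes was -0.52. Within the course set the median change was -3.99 and within the parallel set -4.30, with all 56 genes lower at 0 h in both. Members ranged from -5.20 (RPS22A, YJL190C, of the subunit body) to -2.80 (RPS9A, YPL081W, whose protein lies near the mRNA entry). RPS22A had 670 and 238 RPKM at 0 h, against 12854 and 16873 RPKM in growth (SE 0.481, adjusted p = 0.000198). The 2 values at 0 h, course first, lay further apart than those of growth, without overlap between the states. RPS18A, also with a large fall, changed by -4.80 on the log2 scale (SE 0.225). RPS9A, at the other end, had 327 and 286 RPKM at 0 h, against 2465 and 1848 RPKM in growth.

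**Figure D2:**
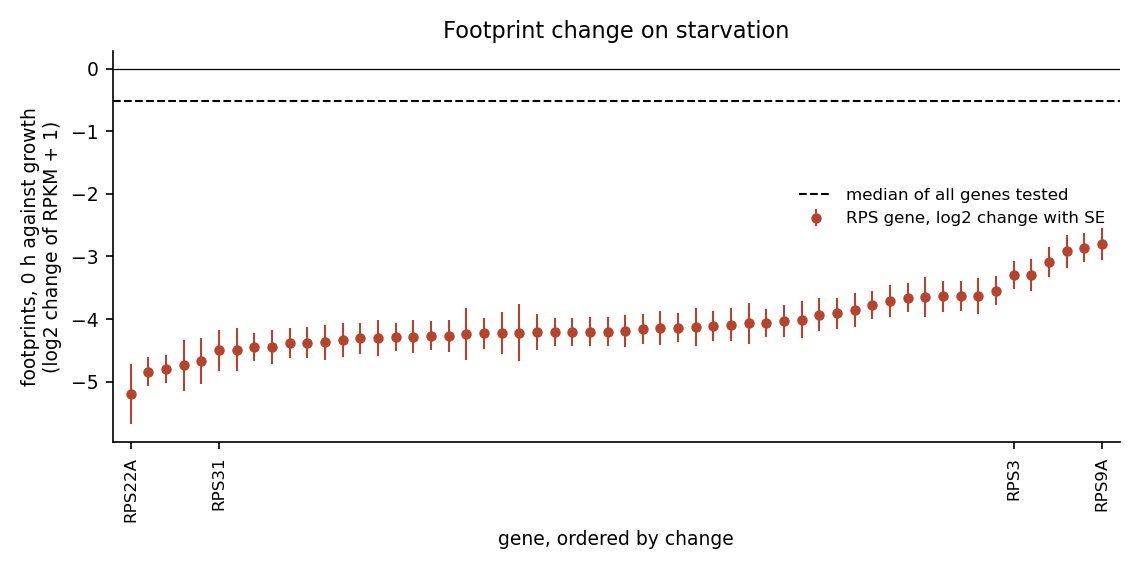
Change of footprints at 0 h against growth for each of the 56 genes, ordered by size and 4 of them named (log2 of RPKM + 1, points with standard errors from limma, 2 libraries a state); the dashed line is the median of all 5510 genes, -0.52. All 56 genes lie between -5.20 and -2.80.

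The single-copy genes fell like the pairs. RPS3 (YNL178W), which lines the mRNA entry channel, had 2093 and 1929 RPKM at 0 h, against 19801 and 19895 RPKM in growth, a log2 change of -3.30 (SE 0.226). RPS31 (YLR167W), which is made as a fusion to ubiquitin, had 1575 and 893 RPKM at 0 h, against 28447 and 25271 RPKM in growth (-4.50, SE 0.322). RPS12 changed by -4.22 on the log2 scale. Others that fell were RPS2 (-4.21), which helps set decoding accuracy, RPS20 (-4.16) and RPS15 (-4.11), both of the subunit head, and RPS13 (-4.01). In no single-copy gene did the libraries of the 2 states overlap, as in none of the 56 members. The share of all genes without overlap is not given here, and 64.0% of all genes were called in this comparison.

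Genes that act with the small subunit were less uniform. Of 82 large-subunit protein genes 80 were tested, and all 80 fell (median -4.15). Among 16 assembly factors of the small subunit 11 fell and none rose (median -1.27), led by FAP7 (-3.25), TSR2 (-2.31), a chaperone of Rps26, and DIM1 (-2.25), which methylates the small-subunit rRNA. Both proteins fixed as partners of the subunit fell: ASC1 (-3.41), on the subunit head, and STM1 (-3.28), which clamps idle ribosomes. Of 8 regulators of ribosomal protein genes 2 rose, a share near the 23.6% of all genes that rose: CRF1 (4.18), a corepressor, and IFH1 (1.15), the coactivator. None of the other 6 regulators passed the test.

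After 0 h the members' level relative to all genes moved in steps. Relative to the median change of all genes, their median mRNA change was -0.42 at 1.5 h against 0 h, 0.29 at 3 h against 1.5 h, 0.35 at 4.5 h against 3 h and 1.02 at 6 h against 4.5 h (log2). At 6 h all 56 genes had moved up on 4.5 h relative to all genes, 31 of them over 2-fold, a step that 5.52% of all genes reached. Total RNA gave 0.84 for the same step and -0.14 for 3 h against 1.5 h, where mRNA gave 0.29. Footprints changed less at 6 h against 4.5 h (0.45, with 50 members up and 6 down, 5 of them over 2-fold up beside 9.29% of all genes). The 56 log2 changes of this mRNA step had a standard deviation of 0.27 across genes, against 0.57 over all 6012 genes of a mean of at least 5 RPKM. Members differed more at 1.5 h against 0 h, with a standard deviation of 0.63 in mRNA and 0.67 in footprints. Relative changes of that step ran in mRNA from -2.01 (RPS3) to 1.41 (RPS14B), and in footprints from -2.19 (RPS9A) to 0.54 (RPS28A). In the last steps the larger change came at 10 h in footprints and in spores in mRNA. At 10 h against 8 h the median relative footprint change was 1.39, with 50 members over 2-fold up (9.39% of all genes) and none down, while mRNA changed by 0.17. In spores against 10 h mRNA changed by 0.98, with 25 members over 2-fold up (10.3% of all genes), and footprints by 0.40. Total RNA changed by 0.55 at 10 h against 8 h and by 0.83 in spores against 10 h.

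Spores held less than growing cells. Relative to all genes, the median change of spores against growth was -1.68 in footprints and -1.62 in mRNA (log2). In footprints all 56 genes were lower, 54 of them over 2-fold, as were 26.1% of all genes. RPS29B was nearest to growth (-0.31 in footprints). In mRNA 54 members were lower and 44 over 2-fold lower (17.8% of all genes). RPS14B (YJL191W) was highest relative to growth in mRNA (0.06), with 3012 RPKM in spores and 2779 RPKM in growth. The Rps14 protein is known to repress splicing of the RPS14B transcript. MATa/a cells at 4.5 h were above meiotic cells of 4.5 h in footprints, with 2.90% against 1.34% of the RPKM sum and 55 of 56 members higher relative to all genes, 51 of them over 2-fold (17.8% of all genes). The exception was RPS28B (-0.06). In mRNA the MATa/a share was 20.5%.

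Members differed widely in level within a library. The highest member had 65.2 times the RPKM of the lowest in course footprints at 4.5 h, against 13.6 times in growth. By mean log2 level over growth to spores, each library scaled to 1000000, RPS12 was highest in mRNA (1109) and RPS30B, whose protein sits at the decoding site, in footprints (979.4). Low values of one copy need care. How reads that match both copies were counted is not stated in the labels, no sequences of the pairs were compared, and copies that resemble each other, such as RPS4 and RPS6, can lose or share such reads. The range over these 9 states was widest for RPS22A (6.09 in mRNA and 5.77 in footprints, log2) and narrowest for RPS29B (2.67 and 3.15), with a median of 4.41 in mRNA and 4.00 in footprints. Growth was the highest state of 56 members in footprints and of 54 in mRNA. The lowest state was between 0 and 8 h for every member in both assays: 0 h for 42 members in mRNA, but 0 h for 21 and 4.5 h for 16 in footprints. This order depends on the scale: relative to the median change of all genes, 45 members in mRNA and 46 in footprints were lower at 1.5 h than at 0 h.

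Translation efficiency, footprints over mRNA on the log2 scale, was high in growth and at 0 h, sank from 0 to 6 h and was high again at 10 h. The median member stood 0.87 above the median of all genes in growth, 1.24 at 0 h, 1.00 at 1.5 h, 0.56 at 3 h, then 0.22 at 4.5 h. At 6 h it was -0.32, with 44 of 56 members below the all-gene median, and at 8 h -0.01 with 29 below. At 10 h it was 1.29 with no member below, and in spores 0.79 with 3 below. Large-subunit genes gave a like course, with 1.28 at 0 h, -0.28 at 6 h and 1.21 at 10 h. The value at 6 h rests on the mRNA libraries: the change from 1.5 h was -1.23 with mRNA and -0.65 with total RNA as the RNA measure. At 10 h against 8 h the members' median RNA change relative to all genes was 0.55 in total RNA and 0.17 in mRNA, beside 1.39 in footprints. The rise in efficiency at 10 h would thus be smaller with total RNA as the RNA measure. All values of this course are of single libraries.

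**Figure D3:**
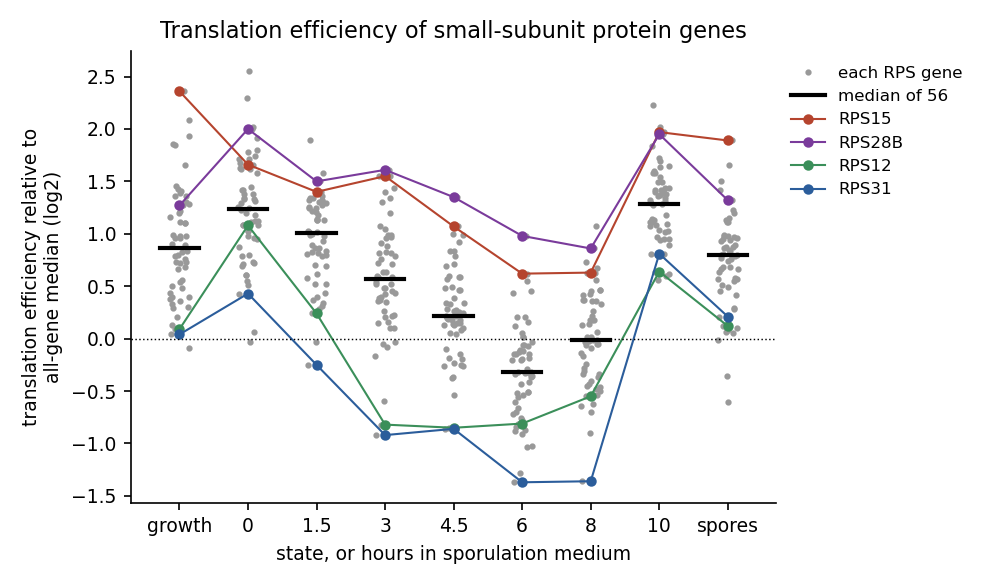
Translation efficiency relative to the median of all genes (log2, dotted line at 0) in 9 states of the course; grey points are the 56 genes, black bars their median and coloured lines 4 named genes. The median is 1.24 at 0 h, -0.32 at 6 h and 1.29 at 10 h; RPS28B and RPS15 lie above it in every state and RPS31 and RPS12 below it.

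Members differed in translation efficiency. By mean over 0 h to spores RPS28B was highest (1.45 above all genes) and RPS31 lowest (-0.41). RPS28B stood at 2.00 at 0 h, 1.50 at 1.5 h, 1.61 at 3 h, 1.35 at 4.5 h, 0.98 at 6 h, 0.86 at 8 h, 1.95 at 10 h and 1.32 in spores. RPS31 stood at 0.43, -0.25, -0.92, -0.86, -1.37, -1.36, 0.81 and 0.21 in the same states. So RPS28B kept above all genes when most members sank below, and RPS31 was the lowest member at 1.5, 3, 4.5, 6 and 8 h. RPS12, next to RPS31 by mean (-0.12), and RPS20 (0.04) were low too, while RPS15 (1.35) and RPS13 (1.08) were high among single-copy genes. RPS2 had a mean of 0.44 and RPS3 of 0.50. In some pairs the copies differed in the same direction in most of 9 states. RPS28A was below RPS28B by 0.90 and RPS29A below RPS29B by 0.97 in the median over states, each in 8 of 9 states. The reads of a pair can mix, and this was not tested.

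The copies of a pair took different shares in different states. In course footprints the A copy held over 50% of its pair in all 9 states for 6 pairs, among them RPS14, RPS24, RPS25 and RPS26. The B copy did so for 4 pairs (RPS9, RPS21, RPS27 and RPS29), and 14 pairs crossed 50%. Over all pairs and states the A share lay between 9.71% (RPS9 at 10 h) and 87.4% (RPS26 at 4.5 h). The median range over states was 18.8 percentage points in footprints and 18.2 in mRNA. Levels of A shares depend on how reads common to both copies were counted. A change of the share between libraries depends on it less where the counting was the same for all. Levels also depend on the length by which each copy was divided. Values of RPS14B gave whole reads at a length of 774 bases and those of RPS14A at 414 bases. The longer divisor lowers the RPKM of RPS14B and so raises the A share of RPS14, which was 55.0% at its lowest, in spores. The place of RPS14 above 50% in all 9 states is therefore not secure. Its shares at like lengths were not computed.

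The largest ranges in footprints were those of RPS22, RPS7, RPS14 and RPS29. RPS22A held 81.8% of its pair in growth, 71.9% at 0 h, 45.1% at 1.5 h, 52.5% at 3 h, 55.4% at 4.5 h, 58.2% at 6 h, 56.2% at 8 h, 58.8% at 10 h and 61.5% in spores. The parallel footprint libraries gave 80.9% in growth, 60.9% at 0 h, and 53.8% and 46.7% at 1.5 h. RPS22A thus gave way to its copy on starvation in both sets, and spores did not return to the share of growth. The mRNA share of RPS22A was 73.7% in growth, 39.0% at 0 h and 61.4% in spores. RPS7A, in contrast, held 74.5% in growth, 48.1% at 1.5 h and 80.3% in spores in footprints, and 78.8%, 45.5% and 70.1% in mRNA. RPS14A held 83.8% in growth, 56.7% at 4.5 h and 55.0% in spores in footprints. RPS29A, a zinc-binding protein of the head, held 14.6% in spores, against 41.2% in growth, in footprints, and 28.6% in spores, against 57.9% in growth, in mRNA. The narrowest ranges were those of RPS19 (41.5 to 52.1%, 10.6 points) and RPS24 (60.4 to 71.8%, 11.4 points).

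**Figure D4:**
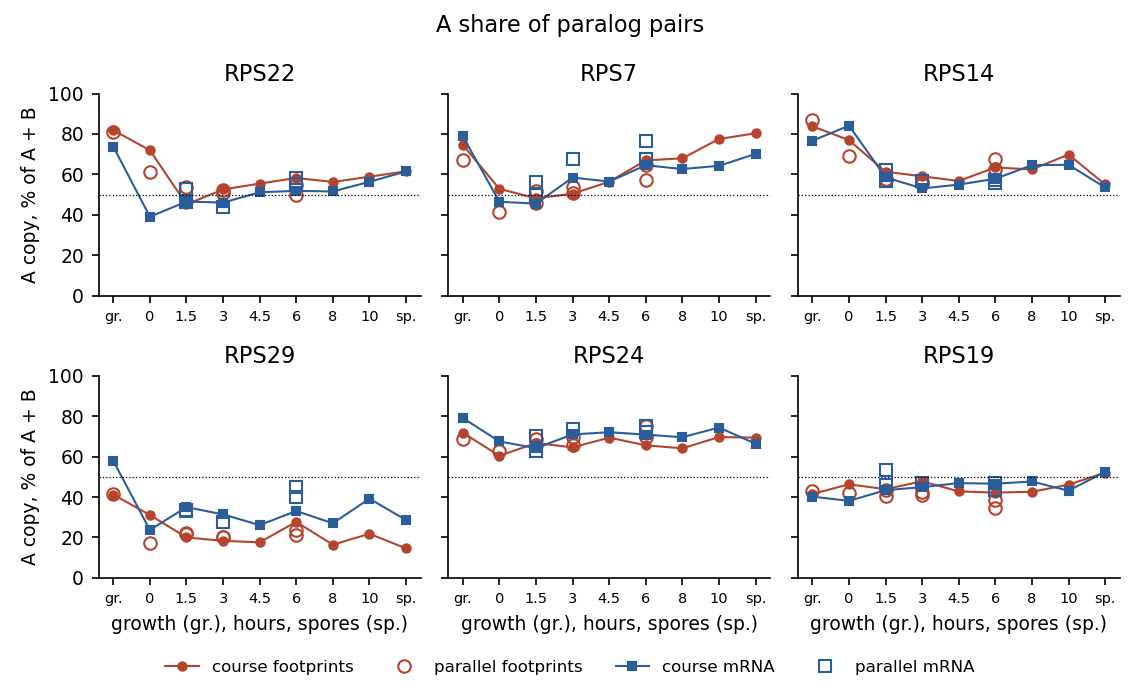
Share of the A copy in A plus B (percent) for the 4 pairs with the largest and the 2 with the smallest range in footprints; lines are course libraries, open points parallel ones and the dotted line is 50%. RPS22 is at 45.1% at 1.5 h, against 81.8% in growth, while RPS24 stays between 60.4 and 71.8% in footprints.

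At 0 h against growth 4 of 24 pairs changed in their footprint ratio of A to B, a share near the 18.3% of all 60 pairs tested. These 60 are all gene pairs whose symbols differ only in a last letter A or B after a digit, ribosomal or not (limma, Benjamini-Hochberg adjustment over these pairs). RPS9 and RPS1 turned toward A. RPS9A held 23.1% and 32.7% of its pair at 0 h, against 10.9% and 10.3% in growth (log2 ratio change 1.69, SE 0.299, adjusted p = 0.0164). RPS1A, at the platform of the subunit, held 65.0% and 65.6%, against 40.4% and 44.9% (1.34, SE 0.229, adjusted p = 0.0164). RPS27A, a zinc-binding protein, held 48.5% and 63.2% at 0 h, against 33.6% and 32.4% in growth (1.36, SE 0.336, adjusted p = 0.0414). RPS7 turned toward B, with A at 52.8% and 41.2% at 0 h, against 74.5% and 66.9% in growth (-1.46, SE 0.334, adjusted p = 0.0408). In each of these 4 pairs the shares of the 2 states did not overlap. This adds no support, since the test picked the pairs from the same libraries. RPS14 (-1.11) and RPS22 (-1.13) lay just outside the threshold, each at an adjusted p = 0.0501. All 4 calls were lost when either library of growth was left out, where 1 library stands for that state. Over 10 alternatives the log2 ratio change was 1.34 to 2.03 for RPS9 and 1.20 to 1.47 for RPS1. It was 0.93 to 1.80 for RPS27 and -1.80 to -1.12 for RPS7. Of all 24 pairs, 17 moved in the same direction in both sets. In mRNA of the course, 13 of the 24 pairs moved in the same direction as in course footprints. RPS14 did not: its A copy held 84.1% in mRNA at 0 h, against 76.6% in growth. Of the 4 called pairs, RPS9A moved to 15.9% at 0 h against 11.6% in growth, RPS1A to 59.3% against 44.9%, RPS27A to 41.4% against 29.5% and RPS7A to 46.4% against 78.8%.

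In the parallel set, 3 h cells were set against 1.5 h cells, that is, within early meiosis. No member changed in mRNA, where 3.84% of 5967 genes were called, and none at an unadjusted p under 0.05. The median change was -0.04 against 0.11 over all genes. It was 0.48 without the first 1.5 h mRNA library and -0.52 without the second, so its direction rests on single libraries. In footprints no member changed and 7.81% of genes were called. Of the members, 7 had an unadjusted p under 0.05, as had 1584 of the 5967 genes, and 53 of 56 had a negative change. The median was -0.49, against -0.07 over all genes, and it was -0.15 without the first 1.5 h library. Without the second 1.5 h footprint library 3 members fell. RPS31 had 396 and 449 RPKM at 3 h, against 861 and 429 RPKM at 1.5 h, groups that overlap. Translation efficiency changed in no member and in 0% of genes (median -0.49, against -0.17 over all genes), with no member and 523 genes at an unadjusted p under 0.05. This median was 0.04 without the second 1.5 h mRNA library and -0.98 without the first, so its direction too rests on single libraries. No pair passed in any of these comparisons, where 0% of the 61 pairs tested passed. The largest change was that of RPS7 in mRNA (0.90, SE 0.326, adjusted p = 0.402) and of RPS28 in translation efficiency (-0.99, SE 0.346, adjusted p = 0.530).

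Cells at 6 h were next set against cells at 3 h, a span that takes in the exit from prophase and the divisions. RPS28B (YLR264W) rose in mRNA, 1 of 56 members, where 58.6% of genes were called (9.47% rose). RPS28B had 2249 and 3198 RPKM at 6 h, against 1375 RPKM at 3 h (log2 change 0.96, SE 0.307, adjusted p = 0.0238). Rps28b is known to set the level of its own mRNA through the decay factor Edc3. The number of members called was between 0 and 7 when 1 library was left out, with 7 when either 1.5 h mRNA library was left out. RPS28B lost its call without the second 6 h library (adjusted p = 0.108, range over alternatives 0.00506 to 0.108). The median member changed by 0.41, against -0.81 over all genes, and 51 of 56 members had a positive change. With each library centred on its all-gene median, 18 members rose and none fell, where 28.5% of genes were called (14.7% of all genes rose). The single-copy genes had changes of 0.02 (RPS15) to 0.81 (RPS3), none past the threshold. RPS3 had 1521 and 1846 RPKM at 6 h, against 954 RPKM at 3 h (adjusted p = 0.114).

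In footprints 3 of 56 members rose and none fell at 6 h, where 56.2% of genes were called (15.6% rose). The count was 10 in a fit of footprints alone and between 1 and 10 when 1 library was left out, with 10 when either 1.5 h mRNA library was left out. RPS28B had 5142 and 4754 RPKM at 6 h, against 2427 and 1983 RPKM at 3 h (log2 change 1.17, SE 0.251, adjusted p = 0.00375). It passed under all 18 alternatives. At 6 h it was the highest member in both parallel footprint libraries and in the course library. RPS20 (YHL015W), of the subunit head, had 926 and 875 RPKM at 6 h, against 454 and 461 RPKM at 3 h (0.98, SE 0.345, adjusted p = 0.0373). RPS23B (YPR132W), a protein of the decoding centre, had 1062 and 1052 RPKM at 6 h, against 574 and 688 RPKM at 3 h (0.75, SE 0.230, adjusted p = 0.0207). RPS20 lost its call under 8 of 18 alternatives, among them the removal of any 1 of the footprint libraries of 6 or 3 h (adjusted p by limma of 0.105 to 0.122). RPS23B lost it under 4, among them the removal of either 6 h library or of the first 3 h library (adjusted p = 0.0773, 0.0802 and 0.126). The median member changed by 0.34, against -0.45 over all genes, and 11 members rose with libraries centred on the all-gene median, where 47.5% of genes were called (19.0% rose). Translation efficiency at 6 h against 3 h changed in no member, at an unadjusted p under 0.05 either, and in 1.32% of genes. Its median was -0.10, against 0.33 over all genes, and it lay between -0.24 and 0.03 when 1 library was left out.

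Of all genes 49.1% fell in mRNA at 6 h against 3 h and 40.6% in footprints, and the counts of the other lists stand beside these shares. In mRNA, 6 of 8 regulators fell, led by IFH1 (-2.06), ABF1 (-1.72), a general regulatory factor, and SFP1 (-1.27), an activator. In footprints 3 fell: ABF1 (-1.19), RAP1 (-1.14) and HMO1 (-0.57). Among assembly factors 1 rose and 5 fell in mRNA, and 3 rose and 2 fell in footprints. HRR25, a kinase of subunit maturation that also acts in meiosis, rose by 1.95 in mRNA and by 2.57 in footprints. NOB1 (-1.25), the nuclease that finishes the rRNA of the subunit, and BUD23 (-1.14) fell in mRNA. In footprints TSR4 (1.12), a chaperone of Rps2, and RIO1 (0.88) rose. Of 82 large-subunit genes, RPL41A (1.73) and RPL9B (1.07) rose and RPP1A (-0.65) fell in mRNA, and RPL29 (1.41), RPL11B (0.99) and RPL43A (0.67) rose in footprints. Neither ASC1 nor STM1 passed. At 3 h against 1.5 h no gene of these lists passed in mRNA or translation efficiency, and RPP1A (0.79) and RPL15B (0.63) rose in footprints.

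Between paralogs, RPS29 changed in mRNA at 6 h against 3 h, 1 of 24 pairs, beside 4.92% of the 61 pairs tested. RPS29A held 44.8% and 39.8% of its pair at 6 h, against 27.8% at 3 h (log2 ratio change 0.93, SE 0.215, adjusted p = 0.031). The call was lost without the first 6 h mRNA library (adjusted p = 0.211) and without either 3 h footprint library (0.0571), and the range over 17 alternatives was 0.0089 to 0.211. In course mRNA RPS29A held 33.1% at 6 h and 31.4% at 3 h. In footprints no pair of these genes passed, where 1.64% of pairs did. At an unadjusted p under 0.05 by limma were 5 of 24. The like share of all 61 pairs is not given here, so this count is not read as a result about these genes. RPS28 changed most there (-0.61, SE 0.219, adjusted p = 0.136), with A at 36.9% and 38.9% at 6 h, against 43.2% and 53.2% at 3 h. In translation efficiency RPS29 changed most (-0.72, SE 0.278, adjusted p = 0.588), where 0% of pairs passed.

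In induced cells the mRNA share of the 56 genes was 3.07% at 5.75 h, 2.14% at 6 h, 0.758% at 6.5 h, 0.609% at 7 h, then 0.326% at 7.75 h. In uninduced cells it was 2.07% at 4 h, 1.28% at 5.5 h, 1.78% at 6 h, then 1.19% at 7.75 h. So the first 2 induced libraries lay above every uninduced one and the last 3 below every one. Over all 9 libraries no member changed, by limma with hour as a linear term, at an unadjusted p under 0.05 either, and 0.067% of 5974 genes were called (4 rose). The median change was -0.17, against -0.33 over all genes. Its direction rests on single libraries, since it was 0.67 without the uninduced library of 7.75 h. The exact permutation test of the log2 share over the 9 libraries gave p = 0.405 (two-sided, 126 splits, mean 0.00 induced and 0.62 uninduced). It cannot decide on an effect of induction, since the libraries are single time points rather than replicates and the test ignores hour.

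**Figure D5:**
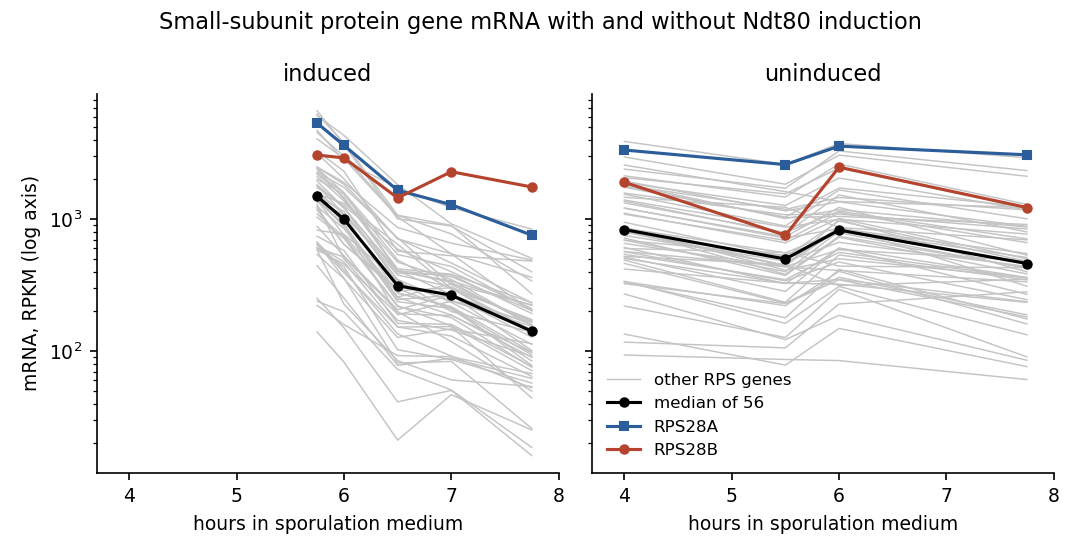
RPKM of the 56 genes (log axis) by hours in sporulation medium in induced (left) and uninduced (right) libraries, 1 library a time point; grey lines are the other genes, black the median. In induced cells the median is 141.5 at 7.75 h, against 1490 at 5.75 h, and RPS28B stays between 1449 and 3063.

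Without the induced libraries of 5.75 and 6 h, an alternative chosen after the data had been seen, 20 members fell and none rose, where 26.8% of genes were called (19.1% fell). The median member changed by -1.22, and the median of all genes by -0.80. So the median gene of these libraries was lower as well. RPS14B changed most (-2.10, SE 0.514, adjusted p = 0.0234 by limma), with 152, 153 and 44.0 RPKM at 6.5, 7 and 7.75 h of the induced cells, against 569, 437, 587 and 485 RPKM in uninduced cells. In all, 52 of 56 members were lower in each of these 3 induced libraries than in any uninduced one, where 47.8% of genes were. At matched hours the picture split. At 6 h 44 members were higher in the induced library than in the uninduced one and 12 lower (median 0.27), and at 7.75 h 55 were lower (median -1.92, against -1.49 over all genes). The acetate-use gene PCK1 was at 15600 and 18100 RPKM in the induced libraries of 5.75 and 6 h and at 1430 to 4680 RPKM in the later ones, against 1120 to 2110 RPKM in uninduced cells. Its part in the result was not tested.

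RPS28B fell least of the members over the induced series. It had 3063, 2916, 1449, 2290 and 1755 RPKM over the 5 induced libraries in order of time, against 1905, 755, 2480 and 1226 RPKM in the uninduced ones. Its copy RPS28A (YOR167C) had 5353, 3629, 1656, 1289 and 756 RPKM in induced cells, against 3346, 2593, 3580 and 3076 RPKM in uninduced cells. From 5.75 to 7.75 h the median member was left with 0.0915 of its RPKM, RPS28B with 0.573 and the next, RPS22B, with 0.303. The A share of the pair was 63.6, 55.5, 53.3, 36.0 and 30.1% in induced cells, against 63.7, 77.5, 59.1 and 71.5% in uninduced cells, so the groups overlapped and the lowest uninduced share lay above 4 of the 5 induced ones. In limma the ratio changed by -1.10 (SE 0.444, adjusted p = 0.323), with adjusted p values of 0.0643 to 0.995 over alternatives and 0% of pairs called. In course mRNA RPS28A held 67.3% at 3 h, 54.3% at 4.5 h, 62.0% at 6 h, 65.5% at 8 h, then 64.5% at 10 h. In course footprints it held 52.4% at 3 h, 34.0% at 4.5 h, 42.5% at 6 h, 50.3% at 8 h, then 55.1% at 10 h. In both assays the share was thus lowest at 4.5 h of these 5 states and higher again later.

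The single-copy genes went down with the rest in the induced series. RPS12 had 6640, 3689, 1005, 888 and 398 RPKM in induced cells, against 2064, 1557, 2438 and 1219 RPKM in uninduced cells. RPS31 had 6258, 3810, 1071, 773 and 341 RPKM in induced cells, against 2133, 1472, 2619 and 1294 RPKM in uninduced cells. Both started above all uninduced libraries and ended below them. RPS15 had 137 RPKM in the induced library of 7.75 h and 1558 RPKM in that of 5.75 h, against 697 to 1466 RPKM in uninduced cells. The limma changes of the 8 genes over all libraries were between -0.35 (RPS13) and 0.32 (RPS12), none past the threshold. The induced library of 7.75 h is the shallowest of the set, at 2.62 in units of 1000000 reads, and its lowest members rest on as few as 5 reads (RPS24B). No regulator, assembly factor, partner or large-subunit gene of the lists passed in this comparison over all libraries. In the course, mRNA of the 56 genes made up 1.83% of the sum by 8 h, against 1.49% at 4.5 h.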

How the data were processed

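Ribosome footprints, mRNA and total RNA of 54 samples were deposited as gene tables, and 52 libraries were used. Per the file headers, the deposited values are RPKM computed by the authors. In 9 of the 10 deposited total RNA columns values are handled as a score. The total RNA values behave as reads times length, and they entered only as changes of a gene between these columns. The submitters' processing notes name CASAVA, bcl2fastq 2.17 and Bowtie2. Build, annotation, strand and the way of counting are not stated there, and no coordinates or sequences are printed.

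In the parallel table, 443 genes, including 4 members (RPS10B, RPS20, RPS24A and RPS30A), had names out of step with their values in 11 columns, which were read by position, under which they correlated with the course at 0.954 or more. The 2 parallel mRNA columns of 3 h were identical and counted as 1 library. No column was matched by name to the 0 h mRNA sample of that set, which was not analysed here. Left unused were 6 columns of per-sample values and 5 nameless lines. Depth came from whole reads recovered from RPKM (78.5 to 90.7% of values up to 100 reads whole within 0.02). They serve as a check of depth only.

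Tests used log2(RPKM + 1), which understates changes of low genes, for genes averaging 5 RPKM or more. limma 3.58.1 (R 4.3.3) was used with a prior that followed the mean level for genes, and a gene was called at a Benjamini-Hochberg adjusted p below 0.05, adjusted across all genes in that comparison. For the parallel libraries (11, leaving 5 residual degrees of freedom) translation efficiency was the interaction of assay and time. At 3 h, where mRNA has 1 library, its spread is taken from the other states. The 9 induction libraries were fitted with a linear hour term. Footprints at 0 h against growth (4 libraries) and the removal of the induced libraries of 5.75 and 6 h were chosen after seeing the data. The difference of log2 A and log2 B was fitted over all gene pairs whose symbols differ only in a last letter A or B after a digit. Translation efficiency in the course is relative to the median of 5621 genes. The labels do not say that replicates are separate cultures, so p values measure the spread between these libraries. Steps were tested on simulated data. Python 3.11.15 with numpy 2.4.6 and pandas 2.3.3 did the rest.

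Members and lists were chosen with earlier results of these data known. Named genes are the single-copy members, the 3 largest rises and falls per contrast among called members, called pairs or the pair of largest change, course extremes, and up to 3 called genes of each other list. RPS18A, RPS14B and RPS28A, and RPS28B in the induced series, were named after their values were seen where no part of this rule names them, as were RPS22B and the course markers. Some members that the rule names are not reported here. No genome was used, so identity between the copies of a pair was not computed.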

Additional observations from a re-analysis of the deposited data

How the results depend on the processing

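In all, 567 alternative values were computed, and 497 counted as kept. A single gene or pair counted as kept if its direction and side of the threshold stayed. A count of calls did so if equal or within 1.5-fold. A median did so within the spread of the members' median between libraries of a group. For induction that spread was 1.1 (log2) and includes the change over time. A median of 0.67 there, against -0.17, thus still counted as kept. No called value changed sign. At 6 h against 3 h, the number of members called in mRNA was 18 with centring on the all-gene median and 4 with quantile normalization, against 1 as reported, and the median there was 1.02 with centring, against 0.41. In footprints it was 11 with centring, 1 with quantile normalization, 7 with the replicate block and 10 with footprints alone, against 3. For footprints at 3 h against 1.5 h it was 3 with footprints alone, against 0. Pairs called in mRNA at 6 h against 3 h were 2 with quantile normalization and 0 with the replicate block (RPS29 adjusted p = 0.071), against 1. Replicate numbers did not pair the libraries (correlations of deviations -0.113 to 0.236). In footprints at 0 h against growth, the replicate block gave 7 pairs, against 4, where block means the course or parallel set, and the correlation was 0.241. The median change there was -3.99 with centring, -3.62 with quantile normalization and -3.97 with libraries scaled to 1000000, against -4.19. The median translation efficiency change at 6 h against 3 h was -0.45 with centring, against -0.10, and the course value at 6 h against 1.5 h was -0.65 with total RNA, against -1.23. Without the induced libraries of 5.75 and 6 h 20 members were called, against 0. For these changes the cause was not tested.

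Leaving out 1 library at a time gave these ranges. For 3 h against 1.5 h, the median change was -0.52 to 0.48 in mRNA, -0.78 to -0.15 in footprints and -0.98 to 0.04 in translation efficiency, and 0 to 3 members were called in footprints. For 6 h against 3 h, members called were 0 to 7 in mRNA and 1 to 10 in footprints, and pairs called 0 to 1 in mRNA. The median there was 0.35 to 0.58 in mRNA, 0.25 to 0.42 in footprints and -0.24 to 0.03 in translation efficiency. The 7 members in mRNA and the 10 in footprints were called when 1 of the 1.5 h mRNA libraries, either of them, was left out, and the 3 members at 3 h against 1.5 h without the second 1.5 h footprint library. For 0 h against growth, pairs called were 0 to 12 and the median -4.24 to -4.04. The induction median was -0.60 to 0.67. Depth limits the induced library of 7.75 h and the parallel footprint library of 0 h (1.03 in units of 1000000 reads) most. PCR duplicates cannot be told from molecules in these values.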
